A study of Homo sapiens with 4 samples.

Results

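IRS2 and FRS2 encode docking adaptors of growth factor receptors, and the peaks of F-MARF1ΔNYN lay differently on their mRNAs: IRS2 held peaks that overlapped between replicates, and FRS2 held peaks that did not. The members were chosen by the peak lists themselves, as every peak of either replicate and every interval of the authors' final list that overlapped the gene body of IRS2 or FRS2 in hg19. This gave 10 of the 1253 peaks of the series, 8 in IRS2 and 2 in FRS2, and 2 of the 282 final intervals, both in IRS2. Both genes were among the 472 of 20149 protein-coding genes (2.34%) with a peak in either replicate. Because the peaks chose the genes, their values are given as a description, and no difference was tested.

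The peaks come from iCLIP, in which UV light links protein to RNA and the RNA fragments precipitated with the protein are sequenced, in HEK293-Trex cells, a derivative of the human embryonic kidney line HEK293 and called HEK293 cells from here on. F-MARF1ΔNYN is a FLAG-tagged MARF1 without its NYN ribonuclease domain, expressed from a doxycycline-inducible transgene that was switched on for 12 hr by doxycycline at 100 ng/mL. Control HEK293 cells expressed no FLAG-tagged protein, and the sources used here do not state whether they received doxycycline. Both groups were crosslinked with 400 mJ per square centimetre of UV light at 254 nm and precipitated with a FLAG antibody, in 2 biological replicates each, which makes 4 libraries. The authors called peaks in each F-MARF1ΔNYN library against the control of the same number, which gave 719 peaks in replicate 1 and 534 in replicate 2, and took the overlap of both lists as the final list.

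MARF1 is a cytoplasmic ribonuclease that contacts mRNA through LOTUS domains and lowers the level of its targets. IRS2 is recruited to activated insulin and insulin-like growth factor receptors, is phosphorylated on tyrosines and then binds lipid kinases and other effectors that carry the signal to AKT. FRS2 is anchored in the plasma membrane, binds fibroblast growth factor and neurotrophin receptors, and once phosphorylated recruits GRB2 and a tyrosine phosphatase that pass the growth signal on.

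All 10 peaks had their summits in 3'UTRs, where 81.2% of all replicate 1 summits and 87.3% of all replicate 2 summits lay. IRS2 (ENSG00000185950) is on the minus strand at chr13:110405042-110438930 and has 1 annotated coding transcript, with 2 exons and a 3'UTR of 3609 nt. FRS2 (ENSG00000166225) is on the plus strand at chr12:69864129-69973573, and its 3 coding transcripts with an annotated 3'UTR all contain the summits described here, in a 3'UTR of 4838 nt. The 3'UTRs make up 10.6% and 4.42% of the gene bodies of IRS2 and FRS2. Along the transcript, the IRS2 peaks were lettered A to H and the FRS2 peaks A and B. No other annotated gene overlapped any of the 10 peaks (0 for each), which bears on the reading because the peaks were called without regard to strand. Each peak matched hg19 at its own position only, with 0 other matches at an E value of up to 1e-05.

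The bases around the summits, the positions of highest pileup, are shown for the peaks that the comparison rests on. They are reference sequence of hg19 on the transcript's strand, 5′ to 3′, with the summit bases in capitals. Reads were extended to 100 bp before peak calling, so a summit is a pileup maximum and not a crosslinked base. The stretches belong to the overlap nearest the stop codon of IRS2 (chr13:110408122-110408151), to the replicate 2 summit (chr13:110407321-110407349) and the replicate 1 summit (chr13:110407263-110407291) of the other IRS2 overlap, and to the FRS2 peaks of replicate 1 (chr12:69971967-69971995) and replicate 2 (chr12:69973027-69973055).
IRS2 peaks B and C, both summits: aggacctcctgtaGtaGcccctgcgctgtg
IRS2 peak D, replicate 2: tgttctgccgttttCtgctccctcgacac
IRS2 peak E, replicate 1: cgtgggggcttcccCagtgcctatcttct
FRS2 peak A, replicate 1: ttgtgcaatgtgtaGtgtgtgtgtataaa
FRS2 peak B, replicate 2: atgactgttttttgCcatataagccatgt
The IRS2 stretches held 55.2 to 63.3% G and C, and each FRS2 stretch held 34.5%.

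**Figure D1:**
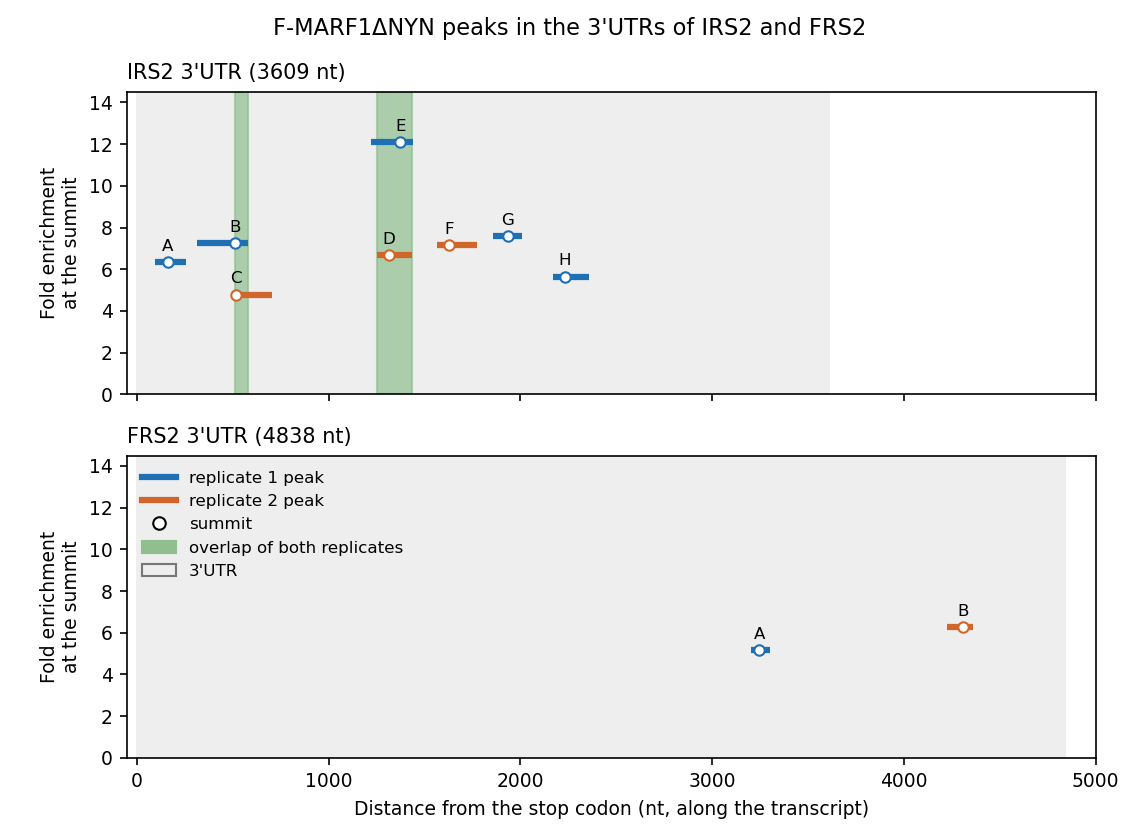
Peaks of F-MARF1ΔNYN in the 3'UTRs of IRS2 (top) and FRS2 (bottom), by distance from the stop codon in nt (horizontal) and fold enrichment at the summit (vertical). Bars span the peaks of replicate 1 (blue) and replicate 2 (orange), open circles mark summits, and green bands mark the 2 overlaps in IRS2; the FRS2 peaks lie 923 bp apart.

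In IRS2, replicate 1 gave 5 peaks and replicate 2 gave 3. Fold enrichment, the authors' linear ratio of reads to local background at the summit with 1 added to each, ranged from 5.64 to 12.1 in replicate 1 and from 4.78 to 7.16 in replicate 2. The median of all peaks was 6.12 in replicate 1 and 7.5 in replicate 2. Thus 4 of the 5 IRS2 peaks of replicate 1 were above their replicate's median, and all 3 of replicate 2 were below theirs. In 26 protein-coding genes, IRS2 among them, replicate 1 had 5 or more peaks, and in 63 genes, IRS2 among them, replicate 2 had 3 or more.

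The stronger overlap of IRS2 lay at chr13:110407218-110407401, from 1250 to 1433 nt after the stop codon. Peak E of replicate 1 (chr13:110407213-110407431) had a fold enrichment of 12.1 and a q-value, the peak caller's adjusted p-value, of 3.51e-16. Peak D of replicate 2 (chr13:110407218-110407401) had a fold enrichment of 6.67 and a q-value of 8.7e-09. Peak E ranked 22 of 719 by fold enrichment and peak D 372 of 534. The whole of peak D and 84.0% of peak E were in the overlap, and the summits were 58 bp apart.

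The weaker overlap of IRS2 lay nearer the stop codon, at chr13:110408069-110408140, and was 72 bp long. Peak B of replicate 1 (chr13:110408069-110408336) had a fold enrichment of 7.25 and a q-value of 7.23e-07, and peak C of replicate 2 (chr13:110407944-110408140) had 4.78 and 0.0206. Peak C had the highest q-value of all member peaks and ranked 511 of 534 by fold enrichment. The overlap covered 26.9% of peak B and 36.5% of peak C, so the peaks met at their edges. Their summits were nevertheless 3 bp apart, at 513 and 516 nt after the stop codon, closer than those of the stronger overlap.

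In all, 4 of the 8 IRS2 peaks overlapped a peak of the other replicate. These were 2 of the 5 replicate 1 peaks and 2 of the 3 replicate 2 peaks, against 35.9% of all replicate 1 peaks and 46.8% of all replicate 2 peaks. The same count in FRS2 was 0 of 2. The selection rule named both outcomes, and nothing is read from these shares.

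The other 4 IRS2 peaks were called in a single replicate. Peak A of replicate 1 (chr13:110408395-110408554) was nearest to the stop codon, with its summit at 162 nt, a fold enrichment of 6.34 and a q-value of 2.46e-06. Peak F of replicate 2 (chr13:110406879-110407086) had its summit at 1629 nt, with 7.16 and 3.91e-06. Peak G of replicate 1 (chr13:110406640-110406793) followed at 1933 nt, with 7.57 and 3.26e-07. Peaks F and G came from different replicates and were 85 bp apart at their edges and 304 bp apart at their summits. Peak H of replicate 1 (chr13:110406292-110406479) was the farthest from the stop codon, at 2232 nt, with 5.64 and 0.000354. Peak A lay 254 bp and peak H 399 bp from the nearest peak of replicate 2. The summits of all 8 peaks fell between 4.49 and 61.8% of the length of the IRS2 3'UTR, and no IRS2 peak reached beyond 2359 nt after the stop codon.

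FRS2 had 1 peak in each replicate. Peak A of replicate 1 (chr12:69971939-69972038) was 100 bp long, the extension size of the peak call, with its summit at 3246 nt after the stop codon. Its fold enrichment was 5.17 and its q-value 0.000788, and it ranked 562 of 719. Peak B of replicate 2 (chr12:69972962-69973096) had its summit at 4306 nt, with a fold enrichment of 6.27, a q-value of 9.8e-06 and a rank of 416 of 534. Both FRS2 peaks were below the median fold enrichment of their replicate. They lay at 67.1 and 89.0% of the length of the 3'UTR, downstream in relative terms of every IRS2 summit. Their edges were 923 bp and their summits 1060 bp apart, and the final list held 0 intervals in FRS2.

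Fold enrichment and p-value depend on the same pileup, so the whole number of reads under each summit could be worked out from the pair, for 719 of 719 peaks of replicate 1 and 534 of 534 of replicate 2. Peak E of IRS2 stood on 16 reads (95% Poisson interval 9.15 to 26.0) in replicate 1, and peak D on 20 reads (12.2 to 30.9) in replicate 2. These intervals, which cover counting error only, overlap. The ranks by reads, 70 of 719 and 62 of 534, were also closer than the ranks by fold enrichment. The local background, in scaled control reads per 100 bp, was 0.402 in replicate 1 and 2.0 in replicate 2. Control reads in the window of 100 bp at the summit thus numbered 0 in replicate 1 and at most 2 in replicate 2. Here and below, control reads within a stated number of bp are those in a window of that total length. Replicate 2 thus had the lower fold enrichment with no fewer reads and with a higher background.

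At the weaker IRS2 overlap, peak B had 8 reads (3.45 to 15.8) and peak C 9 reads (4.12 to 17.1). The background was 0.241 in replicate 1 and 1.0 in replicate 2, which allows 0 control reads and at most 1 control read within 100 bp. As at the stronger overlap, the intervals of both replicates overlap, and the background of replicate 2 was the higher. Among the IRS2 peaks of a single replicate, peaks A and H had 6 reads each (2.20 to 13.1), peak G had 9 (4.12 to 17.1) and peak F had 11 (5.49 to 19.7). Their backgrounds were 0.104, 0.241, 0.321 and 0.600 for A, H, G and F, each allowing 0 control reads within 100 bp.

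The FRS2 peaks stood on fewer reads than any IRS2 overlap. Peak A had 5 reads (1.62 to 11.7) over a background of 0.161, which allows at most 2 control reads within 1000 bp. Peak B had 6 reads (2.20 to 13.1) over 0.0700, which allows 0 control reads within 1000 bp and at most 7 within 10000 bp. In each replicate the interval of the FRS2 peak overlaps with those of all IRS2 peaks, widely for B (8 reads) and C (9) and only at the ends for E (16) and D (20). Overlap of intervals does not show that the reads were alike, and the difference was not tested. By reads, peak A ranked 552 of 719 and peak B 498 of 534.

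The reads of a replicate where no peak was called are not analysed here. The lowest −log10 p-value in each list gives the number of reads that a call needed. At the lowest background found in the lists, 3 reads would pass in replicate 1 and 4 in replicate 2. With 1 control read within 1000 bp, 3 reads would pass in replicate 1 and 5 in replicate 2. With 1 control read within 100 bp, 7 reads were needed in replicate 1 and 9 in replicate 2, and with 2 control reads 10 and 12. The 5 reads of FRS2 peak A and the 6 reads of peak B would pass in the other replicate over 1 control read within 1000 bp and would not over 1 control read within 100 bp. The background of the other replicate at these sites was not analysed here, so the missing partner of each FRS2 peak does not show that the site was free of F-MARF1ΔNYN in the other replicate.

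**Figure D2:**
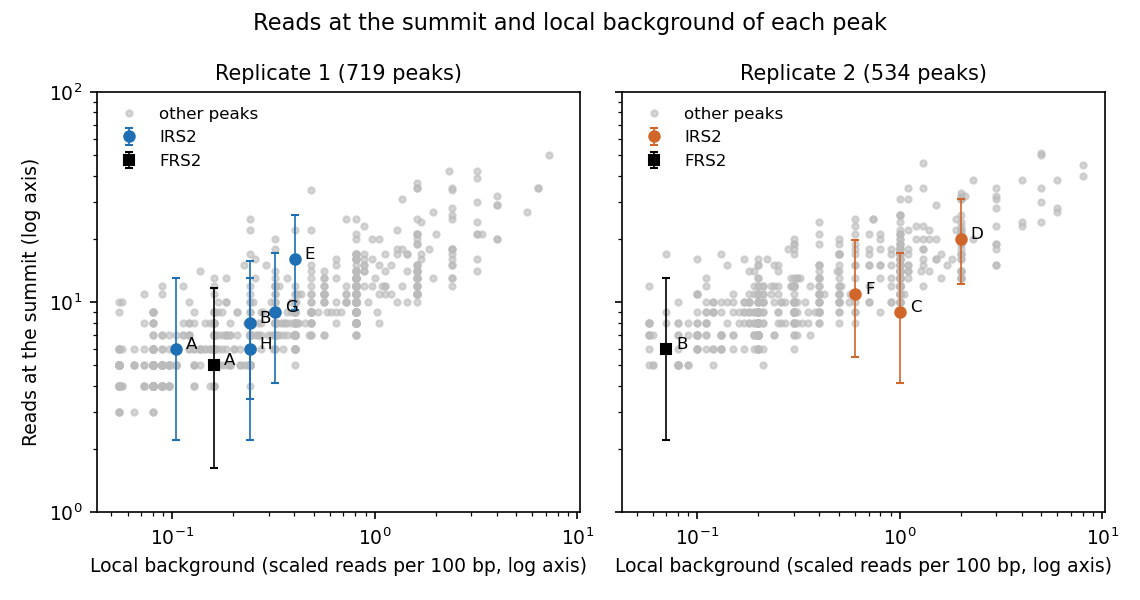
Reads at the summit (vertical, log axis) against the local background in scaled control reads per 100 bp (horizontal, log axis) for all 719 peaks of replicate 1 (left) and 534 of replicate 2 (right). Coloured circles are the IRS2 peaks and black squares the FRS2 peaks, lettered as in the text, with 95% Poisson intervals; IRS2 peaks D (20 reads) and E (16 reads) have more reads than the FRS2 peaks (6 and 5 reads), with intervals that overlap at their ends.

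Both genes had peaks in both replicates, as had 165 protein-coding genes, of which 115 (69.7%) had at least 1 overlap, IRS2 among them, and 50 had none, FRS2 among them. In the genes with an overlap, the peak with the most reads had a median of 13 reads in replicate 1 and 16 in replicate 2, and IRS2 had 16 and 20. In the genes without an overlap, the medians were 7 and 9 reads, and FRS2 had 5 and 6. By reads, IRS2 was thus above the medians of its group and FRS2 below those of its own. By the highest fold enrichment, IRS2 had 12.1 in replicate 1 and 7.16 in replicate 2, against group medians of 8.06 and 8.86. IRS2 was thus below its group's median in replicate 2 by that measure. FRS2 had 5.17 and 6.27, below its group's medians of 6.07 and 6.98 in both replicates. Overlapping peaks were found in 115 of 20149 protein-coding genes in all (0.571%).

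The gap of 923 bp in FRS2 was larger than the median of 477 bp over the 50 genes without an overlap, whose gaps ran from 7 to 3118 bp. In 31 of them the gap was smaller than in FRS2. The FRS2 pattern of 1 peak in each replicate was shared by 28 of the 50, FRS2 included. The smallest gaps were those of OGT (7 bp), an enzyme that attaches a sugar to nuclear and cytoplasmic proteins, ARID1A (27 bp), a chromatin remodelling subunit, and PARD6B (33 bp), a cell polarity protein. The FRS2 peaks were farther apart than their own lengths of 100 and 135 bp, while those of these 3 genes lay within 33 bp of each other.

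**Figure D3:**
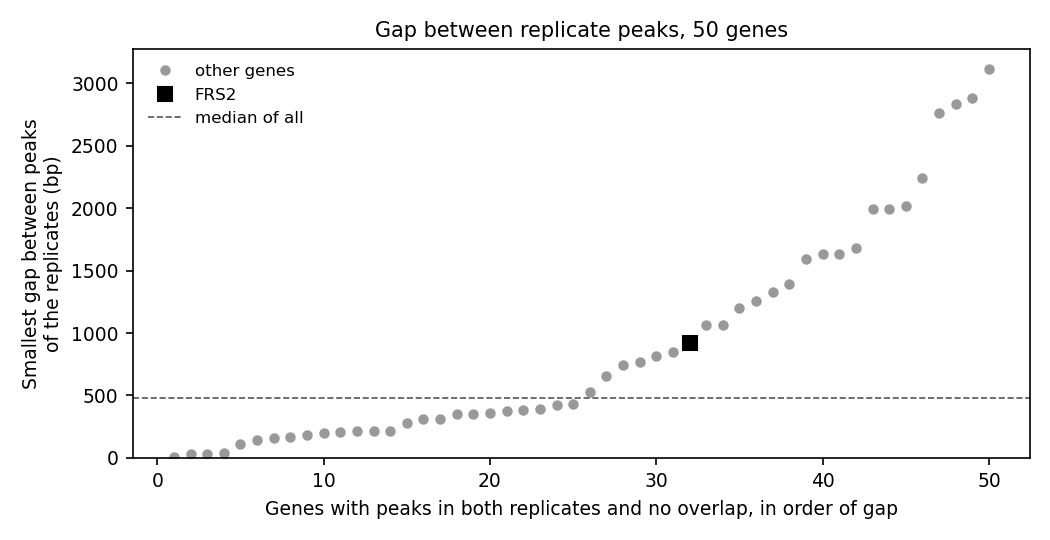
Smallest gap in bp between peaks of replicate 1 and replicate 2 (vertical) for the 50 protein-coding genes with peaks in both replicates and no overlap, in order of gap (horizontal). FRS2 (black square, 923 bp) lies above the median of 477 bp (dashed line).

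IRS2 was 1 of 25 protein-coding genes with 2 overlaps. Nearest to it by the higher peak of the lower replicate (7.16 in IRS2) were EML4 (7.30), a microtubule-associated protein, GLT8D2 (7.42), a glycosyltransferase family member, and FLVCR1 (6.89), a membrane transporter. IRS2 had 5 and 3 peaks in the replicates, EML4 and GLT8D2 2 and 2, and FLVCR1 5 and 6. IRS2 therefore resembled FLVCR1 in carrying peaks outside the overlaps in both replicates. Every peak of GLT8D2 was matched, and both EML4 overlaps came from the same replicate 1 peak, the other replicate 1 peak being unmatched.

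Base composition was not used in choosing the genes. The IRS2 3'UTR held 39.5% G and C and that of FRS2 33.7%. The 100 nt at the summits held 61.0% (B) and 62.0% (C) G and C at the weaker IRS2 overlap and 53.0% (E) and 54.0% (D) at the stronger, against a median of 38.0% over 351 windows of the same length along the IRS2 3'UTR. Peaks F, G and H, farther from the stop codon, held 38.0, 41.0 and 26.0%, and peak A held 50%. All 4 overlapping peaks of IRS2 were thus richer in G and C than each of its 4 unmatched peaks, by least for E (53.0%) against A (50%). They are not 4 separate sites: the summits of B and C were 3 bp apart and those of D and E 58 bp, so their windows share bases. In FRS2 the values were 36.0% for peak A and 39.0% for peak B, against a median of 33.0% over 474 windows.

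Predicted folding energy, which moves with G and C content and is no separate evidence, set the same IRS2 peaks apart. At the weaker IRS2 overlap the 100 nt at the summits had a minimum free energy of -38.1 (B) and -38.3 kcal/mol (C), and at the stronger -33.5 (E) and -26.7 (D), where the median window had -17.6. Lower values, meaning a more stable predicted fold, were found in 1.14% (B), 0.855% (C), 5.13% (E) and 16.0% (D) of the windows. The unmatched IRS2 peaks had -24.4 (A), -14.8 (F), -21.4 (G) and -10.8 kcal/mol (H). FRS2 peak A had -15.5 and peak B -20.4 kcal/mol, close to and below the median of -14.6 of its 3'UTR, and 41.1% (A) and 12.4% (B) of the FRS2 windows were lower. The order depended on the window. Over whole peaks, against windows of the same length, lower values were found in 13.7% (B), 14.3% (C), 5.83% (D) and 5.59% (E) of the IRS2 windows, and in 36.7% (A) and 1.49% (B) of the FRS2 windows. Over the 60 nt at the summits they were found in 0% (B and C), 3.38% (D) and 3.94% (E) of the IRS2 windows, and in 10.7% (A) and 23.8% (B) of the FRS2 windows. FRS2 peak B, which had no partner, was thus the most extreme of the 10 peaks over whole peaks and less extreme than all 4 overlapping IRS2 peaks over 60 nt.

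Stable predicted folds also occurred without peaks. Of the 18 IRS2 windows among the 5% most stable, 11 had their middle in a peak and 7 did not, and those 7 lay from 3071 to 3271 nt after the stop codon. Of all IRS2 windows, 37.6% had their middle in a peak. In FRS2, 3 of the 24 most stable windows had their middle in a peak, all in peak B, where 5.06% of all windows did, and the most stable window (-34.0 kcal/mol) lay at 591 nt, far from both peaks. Whether folding has a part in the position of the peaks was not tested.

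**Figure D4:**
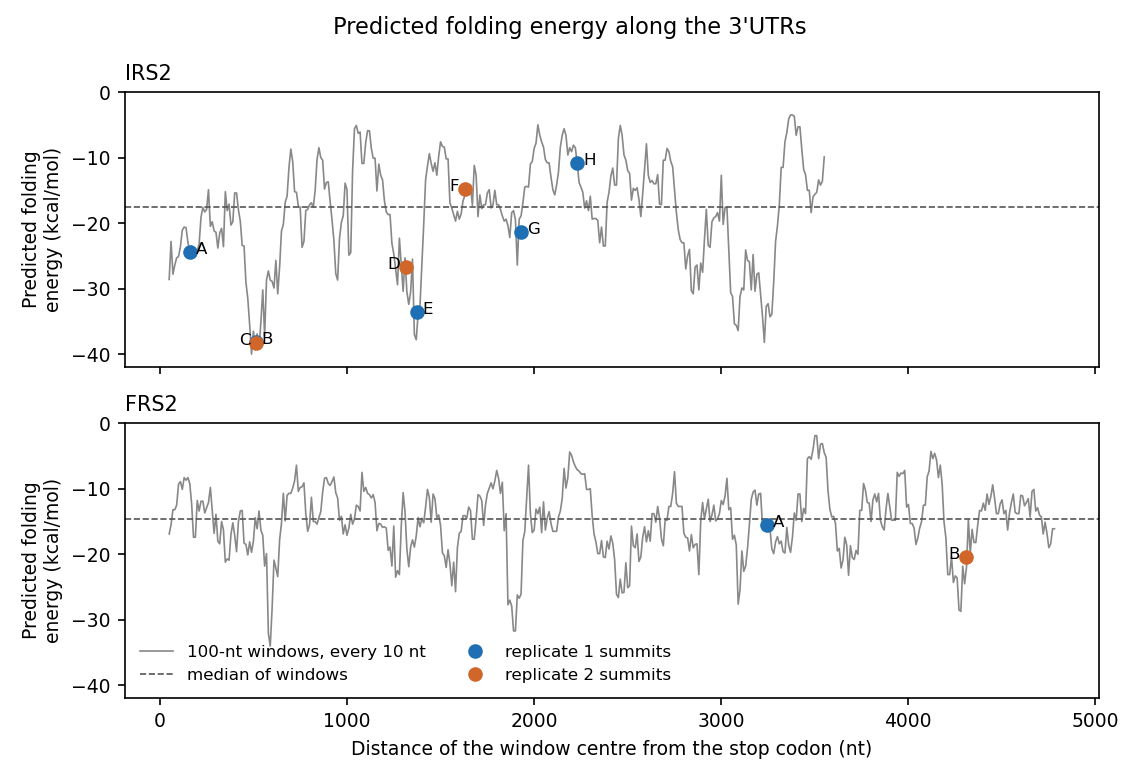
Predicted minimum free energy in kcal/mol (vertical) of 100-nt windows along the 3'UTRs of IRS2 (top) and FRS2 (bottom), by distance of the window's centre from the stop codon in nt (horizontal). Points are the windows at the summits of replicate 1 (blue) and replicate 2 (orange), and dashed lines are the medians (-17.6 and -14.6 kcal/mol); IRS2 peaks B, C and E lie near low points of the line.

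The name given to the stronger IRS2 overlap in the final list was not IRS2. Homer, the authors' annotation tool, placed both IRS2 intervals in the 3'UTR of the RefSeq transcript of IRS2, but the symbol column read IRS2 only at the weaker interval and a clone-based name at the stronger. A search of the list by symbol therefore finds 1 of the 2 intervals of IRS2 and leaves out the one with 16 and 20 reads. The same held for 12 of 186 intervals in 3'UTRs (6.45%), in 7 genes, IRS2 among them, whose symbol differed from the gene of the annotated transcript.

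No other peak was near either gene. The nearest peak outside the IRS2 gene body lay in ZIC5 in both replicates, at distances of 9788319 bp (replicate 1) and 9788325 bp (replicate 2). The nearest outside FRS2 lay in CPSF6 in replicate 1 (198167 bp) and in ANKRD52 in replicate 2 (13212571 bp). These 3 genes are named only as neighbours and were chosen after their positions were seen.

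Among the other docking adaptors only IRS4 had a peak. Of 22 adaptors of the insulin, fibroblast growth factor and neurotrophin pathways, 3 had a peak (13.6%, against 2.34% of protein-coding genes), IRS2, FRS2 and IRS4, and only IRS2 had an overlap. The first 2 were the reason for the list. IRS4, a relative of IRS2 known to be abundant in HEK293 cells, had 1 peak, in replicate 2, with 27 reads over a background of 6.0 and a fold enrichment of 3.81, the lowest of that list. IRS4 thus had more reads than any peak of IRS2 or FRS2, with more control reads below them. The lists of 16 receptors and of 31 ligands and binding proteins had 0 genes with a peak.

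Among effectors downstream of the adaptors, 5 of 41 had a peak (12.2%, against 2.34% of protein-coding genes). FOXO3, a transcription factor that AKT inhibits, resembled FRS2, with 1 peak in each replicate (fold enrichments 6.45 and 11.4) and a gap of 740 bp. The exchange factor SOS1 (7.75, replicate 2) and the adaptor CRK (5.71, replicate 1) had a peak in a single replicate. Of 24 negative regulators, 2 had peaks (8.33%, against the same 2.34%). CBL, a ubiquitin ligase that FRS2 complexes recruit, had 3 peaks in replicate 1 and 2 in replicate 2 with 1 overlap (9.82 and 6.38), and PHLPP2, an AKT phosphatase, had 3 in replicate 2 (5.33 to 6.09).

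Over all lists, 10 of 134 genes (7.46%) had a peak in either replicate, and 8 of 132 (6.06%) without IRS2 and FRS2, against 2.34% of protein-coding genes. The lists were made with peaks of these data known, and expression levels in HEK293 cells were not used here, so no more than the counts is given.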

How the data were processed

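There were 4 iCLIP libraries, 2 of HEK293 cells with F-MARF1ΔNYN and 2 of control cells. The authors' steps were trimming (Trimmomatic 0.32), alignment to hg19 (STAR 2.3.0e), removal of reads at more than 10 places, of secondary alignments (SAMtools 1.9) and of duplicates (Picard 2.10.7), and peak calling for each F-MARF1ΔNYN library against its own numbered control (MACS2 2.1.1, no model, extension 100 bp, FDR 0.05). HOMER 4.10 annotated the overlap of both lists. The deposited lists give each peak a score (10 times the −log10 q-value, cut to a whole number, and used only to match the final list), a fold enrichment (a linear ratio), a −log10 p-value and a −log10 q-value.

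IRS2, FRS2 and the pathway lists were chosen with earlier results of these data known. Gene bodies and 3'UTRs came from GENCODE release 44 on GRCh37, using the transcript with the longest 3'UTR. Peaks counted as overlapping from 1 bp, which rebuilt all 282 final intervals. Reads and local background were solved from fold enrichment and p-value, within 0.001 of the −log10 p-value. On simulated data this recovered 400 of 400 peaks, at read weights of 1 and of 0.95. In the caller's scaling the F-MARF1ΔNYN library had 0.803 times the reads of its control in replicate 1 and 1.05 times in replicate 2, and library totals were not used here. Reads carry exact Poisson intervals, which cover counting error only and not variation between replicates. Folding energies (ViennaRNA 2.7.2) used windows of 100 nt every 10 nt. Other genomic matches were sought with blastn 2.17.0. Named genes are IRS2, FRS2, the listed pathway genes with a peak (some are not reported here), the 3 genes with the smallest gaps and the 3 genes with as many overlaps as IRS2 and the nearest fold enrichment. The 3 genes that hold the nearest peaks outside IRS2 and FRS2 are also named, chosen after their positions were seen. Python 3.11.15, numpy 2.4.6, pandas 2.3.3, scipy 1.17.1, matplotlib 3.10.9 and samtools 1.23.1 were used. No comparison was tested.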

Additional observations from a re-analysis of the deposited data

How the results depend on the processing

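Alternatives covered the overlap, q-value, fold enrichment, gene body, window and each replicate alone. No paired analysis was run, because no comparison was tested. Each control enters only as the background of the peak list of the same replicate number. Of 55 alternatives, 44 left counts within 1.5 times and other values unchanged. FRS2 had 0 overlaps under all 9 alternatives tried for it, most of which could give no other count. Stricter settings can only remove overlaps, and gaps of 923 bp between edges and 1060 bp between summits exceed the 100 bp allowed. The 2 overlaps of IRS2 became 1 with a reciprocal overlap of 50%, 1 at a q-value below 0.01, 1 at a q-value below 0.001, and 1 by the symbol column of the final list, an alternative chosen after seeing the data. The first 3 keep the stronger overlap by their construction, since peak C has a q-value of 0.0206 and is covered by 36.5%, while the symbol column keeps the weaker. With peaks up to 100 bp apart IRS2 had 3. A single replicate gave 3 to 5 of the 8 IRS2 peaks and 1 of the 2 FRS2 peaks (range 1 to 1). Between summits in place of edges, the gap was 1060 bp in FRS2 and 3 bp in IRS2, against 923 and 0 bp. With p taken as the chance of at least as many reads, 0 of the 10 member peaks were solved, so the reads rest on the other convention. The share of 3'UTR windows with a lower folding energy than the peak also moved, for FRS2 peak B from 12.4 to 1.49% with whole peaks and 23.8% with 60 nt, for FRS2 peak A from 41.1 to 36.7 and 10.7%, and for IRS2 peak B from 1.14 to 13.7 and 0%. The FRS2 peaks rest on 5 and 6 reads, and in either gene sites with fewer reads than a call needs were not detectable. Whether depth limited the calls was not tested.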
